A study of Mus musculus with 16 samples.

Results

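The E2F transcription factors E2f1 to E2f8 and the pocket proteins Rbl1 (p107) and Rbl2 (p130) were read in mouse embryonic fibroblasts, as all bead-array probes whose gene symbol in the platform's probe table is one of these 10 names. Of the 10 genes, 9 had a probe, 15 probes in all, among 16593 genes with a symbol. E2f8 is not analysed here. A probe was tested if at least 1 group had it above background, with a detection p under 0.01, on each of its arrays, which left 10 probes of 7 members, E2f1 to E2f6 and Rbl1, out of 12078 probes of 8428 genes. The tested members were E2f2 and E2f6 with several probes each and E2f1, E2f3, E2f4, E2f5 and Rbl1 with 1 each. E2f7 and Rbl2 had no tested probe.

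The series measured total RNA of Hmgb1-/- (KO) and wild-type (Wt) fibroblasts in 3 culture states, cycling, G1 and S, the last 2 being synchronised cultures. The 6 groups were KO and Wt cycling cells (3 arrays each), KO and Wt G1 cells (3 each) and KO and Wt S cells (2 each). Each KO and Wt pair came from embryos of 1 Hmgb1+/- mother mated to an Hmgb1+/- male, with 3 mothers in all, and all lines were grown up to passage 3. The synchronisation method, strain and embryo age are not given in the sources used here, and in such bulk RNA fewer cells of a type and less RNA per cell cannot be told apart.

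E2F proteins bind, mostly as dimers with a DP protein, to a short GC-rich motif in the promoters of genes for DNA replication and cell division. E2f1, E2f2 and E2f3 (its full-length form) are classed as activators, E2f4 and E2f5 as repressors that act with pocket proteins, E2f6 as a repressor that works without pocket proteins, and E2f7 and E2f8 as atypical repressors. Pocket proteins hold E2F factors until cyclin-dependent kinases phosphorylate them late in G1, and in resting cells E2f4 joins Rbl2 or Rbl1 in the DREAM complex. E2f1 and Rbl1 are themselves known targets of E2F.

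The promoters of the tested members that hold an E2F motif are shown because the motif is one that the products of the same genes bind. The sequences are RefSeq windows of build GRCm38.p6, from 250 bases before an annotated start to 50 bases after it, read 5′ to 3′ on the gene's strand, with the match in capitals. The letters searched on both strands were TTTCCCGC, TTTCGCGC, TTTGCCGC and TTTGGCGC.
Rbl1, chr2:157204485-157204784, minus strand: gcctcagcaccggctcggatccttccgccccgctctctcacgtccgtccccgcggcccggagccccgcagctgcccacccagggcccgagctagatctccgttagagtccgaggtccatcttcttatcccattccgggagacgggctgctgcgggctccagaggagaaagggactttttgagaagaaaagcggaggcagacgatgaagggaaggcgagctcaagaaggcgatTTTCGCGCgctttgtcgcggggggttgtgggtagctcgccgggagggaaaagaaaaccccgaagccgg
E2f3, chr13:29986014-29986313, minus strand: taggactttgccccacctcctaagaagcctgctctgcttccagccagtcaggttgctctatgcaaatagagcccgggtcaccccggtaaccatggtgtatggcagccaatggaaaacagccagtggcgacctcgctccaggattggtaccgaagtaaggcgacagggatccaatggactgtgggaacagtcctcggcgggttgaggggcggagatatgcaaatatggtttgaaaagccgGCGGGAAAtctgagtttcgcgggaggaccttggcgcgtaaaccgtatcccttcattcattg
E2f2, chr4:136172024-136172323, plus strand: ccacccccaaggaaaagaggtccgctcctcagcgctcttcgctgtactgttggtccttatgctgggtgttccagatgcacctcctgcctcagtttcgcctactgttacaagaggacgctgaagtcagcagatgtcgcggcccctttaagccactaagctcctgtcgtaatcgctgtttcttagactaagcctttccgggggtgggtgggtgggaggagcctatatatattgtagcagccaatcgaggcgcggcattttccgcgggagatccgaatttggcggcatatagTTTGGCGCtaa
The Rbl1 match began at position -18 from the annotated start, the E2f3 match at -11 (TTTCCCGC on the opposite strand) and the E2f2 match at 40. The E2f7 window held TTTCCCGC on the opposite strand at -198. Windows were found for 8 members (10 windows, all but E2f4 and E2f5), and 4 windows held a match, against 2.28% of the 32544 windows in the RefSeq table. The E2f6 window and the Rbl2 window held none. The E2f1 window also held none, but its start lies 466 bases inside the annotated gene, so it is not the stretch before the gene's outer end. A second window each of E2f2 and E2f3, inside those genes, and the E2f8 window, whose start lies 477 bases inside its gene, held no match. A match describes letters in a window and is no evidence of binding.

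Mean intensity per array ran from 394 to 776, and 9970 to 12354 of the 25697 probes were detected on an array. The arrays lay on 2 slides of 8. Slide 1 held the cycling cells together with G1 pair 3, and slide 2 held G1 pairs 1 and 2 together with the S cells. Thus S and cycling cells shared no slide. KO_G1 replicate 1 stood apart from its group (lowest correlation with a group member 0.881), as did Wt_cycling replicate 3 to a lesser degree (0.941). The 1 Hmgb1 probe was detected on 1 of 16 arrays, with levels of 4.48 to 5.75, and so could not check the genotype labels. Of 9 fibroblast markers with a probe, 8 were detected on all arrays and Lum on 13. The endothelial markers Pecam1, Cdh5 and Kdr and the epithelial marker Krt5 were detected on none. Among the other endothelial markers, Eng was detected on 14 arrays and Tek on 2. Among the other epithelial ones, Krt8 was detected on 8, Cdh1 on 6, Krt14 on 5 and Krt18 on 3. The muscle marker Des and the neural markers Nes and Map2 were detected on all 16, Actc1 on 1, and Myod1, Myog, Tubb3 and Sox2 on 0. Ptprc, a leukocyte marker, was detected on 8 arrays and Itgam on 1. The macrophage markers Adgre1 and Lyz2 were detected on all 16 arrays, and the summed log2 level of the 4 macrophage and leukocyte markers ran from 30.24 to 33.49 over cycling arrays, 29.54 to 38.31 over G1 arrays and 35.75 to 37.48 over S arrays. The S arrays thus all lay above the cycling arrays in that sum, while the G1 arrays spanned both.

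Levels below are normalized log2 intensities. They can be compared between arrays for 1 probe and not between probes. Differences are log2 differences with their standard error (SE) from a limma model of all 16 arrays, and a member was called where a probe had an adjusted p under 0.05 over the 12078 probes. Phase differences are means over KO and Wt.

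E2f1, the activator whose induction accompanies entry into S phase, was lower in G1 cells than in cycling cells and higher in S cells than in G1 cells. In cycling cells its level was 10.15, 10.28 and 10.004 on the KO arrays and 10.09, 10.01 and 9.49 on the Wt arrays. In G1 cells it was 8.55, 8.96 and 8.92 on the KO arrays and 8.73, 9.11 and 9.29 on the Wt arrays. In S cells it was 9.80 and 9.92 in KO and 9.98 and 9.85 in Wt. Every G1 array of both genotypes thus lay below every cycling and every S array, while the cycling and S ranges overlapped. The G1 minus cycling difference was -1.08 ± 0.15 (SE, 6 against 6 arrays, adjusted p = 0.000233, limma), a level 2.11-fold lower in G1. The S minus G1 difference was 0.96 ± 0.16 (4 against 6 arrays, adjusted p = 0.00337, limma), a 1.95-fold higher level in S. S minus cycling was -0.12, with a 95% interval of -0.47 to 0.24. Both calls held in a model with a term for the slide, at -0.90 (adjusted p = 0.0211, limma) and 1.049 (adjusted p = 0.00609, limma). With 1 slide at a time the differences were -0.90 on slide 1 (adjusted p = 0.0507, limma) and 1.049 on slide 2 (adjusted p = 0.0721, limma).

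Ordered by group mean, E2f1 stood at 10.14 ± 0.14 in KO cycling cells (SD, n = 3), 9.92 ± 0.09 in Wt S cells (n = 2), 9.86 ± 0.32 in Wt cycling cells (n = 3), 9.86 ± 0.08 in KO S cells (n = 2), 9.04 ± 0.29 in Wt G1 cells (n = 3) and 8.81 ± 0.23 in KO G1 cells (n = 3). Between KO S and Wt G1 cells the gap exceeded the sum of the SDs of both groups, and between the other neighbours it did not.

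The pocket protein gene Rbl1, whose product is the E2F partner p107, was also lower in G1 cells. Its level was 6.83, 7.15 and 7.42 on the KO cycling arrays and 7.20, 7.15 and 7.61 on the Wt cycling arrays. In G1 cells it was 7.44, 6.23 and 6.12 in KO and 6.59, 6.36 and 6.30 in Wt. In S cells it was 6.98 and 6.92 in KO and 7.64 and 7.48 in Wt. Apart from KO_G1 replicate 1, at 7.44, every G1 array lay below every cycling and S array. G1 minus cycling was -0.72 ± 0.21 (adjusted p = 0.0268, limma), 1.65-fold lower, and S minus G1 was 0.75 ± 0.23, which did not pass (adjusted p = 0.0558, limma). Without KO_G1 replicate 1 these were -0.93 (adjusted p = 0.000272, limma) and 0.96 (adjusted p = 0.00108, limma). The G1 call ended with a slide term (-1.02, adjusted p = 0.0524, limma) and held on slide 1 alone (-1.02, adjusted p = 0.0421, limma). It also ended without any 1 of 7 arrays (KO_cycling replicates 2 and 3, Wt_cycling replicate 3, KO_G1 replicates 2 and 3, Wt_G1 replicates 2 and 3), at adjusted p = 0.0552 to 0.0666 (limma).

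**Figure D1:**
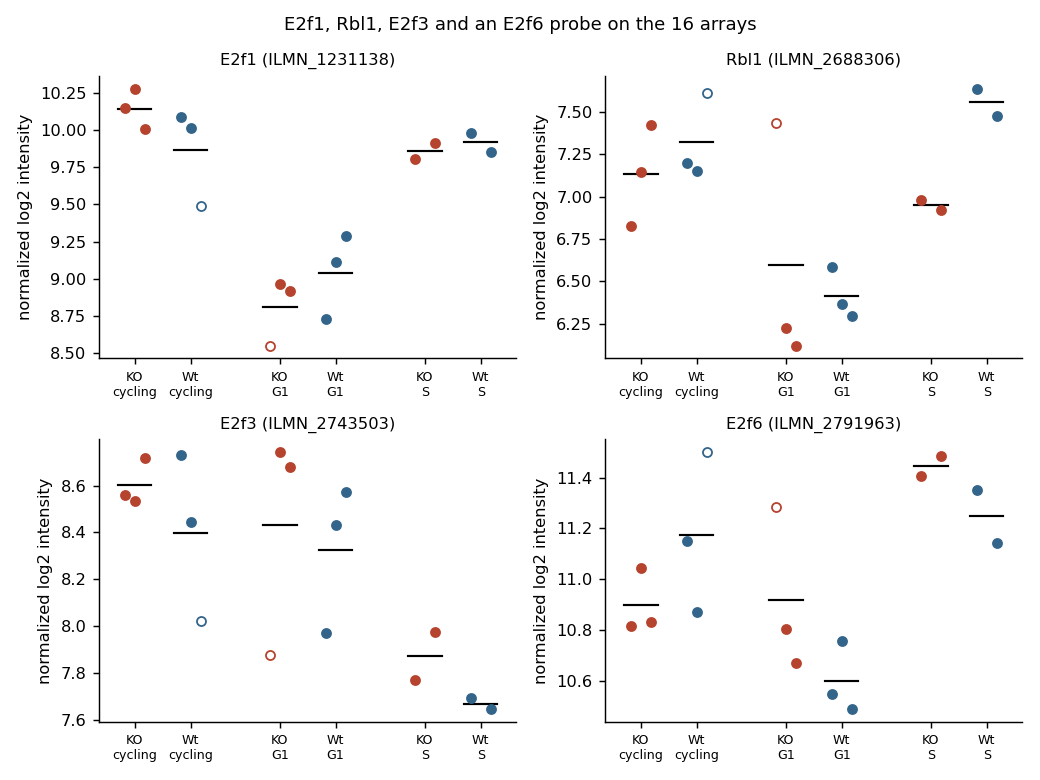
Normalized log2 intensity (y axis) of E2f1, Rbl1, E2f3 and the E2f6 probe ILMN_2791963 on each of the 16 arrays, by group (x axis). Points are arrays, KO red and Wt blue, lines are group means, and open points are KO_G1 replicate 1 and Wt_cycling replicate 3. All 6 G1 arrays of E2f1 lie below its cycling and S arrays, and the 4 S arrays of E2f3 lie below its 6 cycling arrays.

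E2f3, an activator known to matter for the proliferation of fibroblasts, was lower in S cells than in cycling cells. Over the 4 S arrays its level was 7.77 and 7.98 in KO and 7.69 and 7.65 in Wt, against 8.56, 8.54 and 8.72 in KO and 8.73, 8.44 and 8.02 in Wt on the cycling arrays. The S arrays lay below all cycling arrays, the nearest being Wt_cycling replicate 3. The difference was -0.73 ± 0.20 (adjusted p = 0.0395, limma), 1.66-fold lower in S. A slide term made it -0.36 (adjusted p = 0.809, limma), and a term for the pair number (replicate block) -0.70 (adjusted p = 0.0823, limma). The call ended without any 1 of 9 arrays, each of the 4 S arrays and each cycling array but Wt_cycling replicate 3, at adjusted p = 0.069 to 0.157 (limma). In the same comparison the summed macrophage and leukocyte markers were 35.75 to 37.48 on S arrays, against 30.24 to 33.49 on cycling arrays, and their part in the E2f3 difference was not tested. G1 arrays ran from 7.88 to 8.74, with KO_G1 replicate 1 the lowest, and S minus G1 was -0.61 ± 0.20 (adjusted p = 0.067, limma). Without KO_G1 replicate 1 it was -0.75 (adjusted p = 0.00684, limma).

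E2f6, a repressor found in Polycomb-type complexes, had 3 tested probes, and 1 of them was called, in S against G1 cells. Probe ILMN_2791963 read 11.41 and 11.49 in KO and 11.35 and 11.14 in Wt S cells. In G1 cells it read 11.28, 10.80 and 10.67 in KO and 10.55, 10.76 and 10.49 in Wt, so only KO_G1 replicate 1 reached into the S range. The difference was 0.59 ± 0.16 (adjusted p = 0.0344, limma), 1.5-fold higher in S. The probes disagreed in size, since ILMN_2734152 gave 0.50 ± 0.21 (adjusted p = 0.146, limma) and the brightest, ILMN_2723931, gave 0.12 ± 0.14 (adjusted p = 0.652, limma). The call of ILMN_2791963 ended with a slide term (0.50, adjusted p = 0.102, limma) and with the replicate block (0.58, adjusted p = 0.0749, limma). It also ended without any 1 of 7 arrays (each S array, KO_G1 replicates 2 and 3, Wt_G1 replicate 3), at adjusted p = 0.0612 to 0.145 (limma). Without KO_G1 replicate 1, ILMN_2791963 gave 0.68 (adjusted p = 0.00493, limma) and ILMN_2734152 gave 0.70 (adjusted p = 0.00167, limma). In G1 minus cycling cells the 3 probes gave -0.28, -0.26 and -0.08, none called.

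E2f4, the main repressor partner of the pocket proteins, ran from 7.82 to 8.67 in G1 cells, 7.42 to 8.02 in cycling cells and 7.46 to 8.0 in S cells. The ranges overlapped. G1 minus cycling was 0.38 ± 0.15 (adjusted p = 0.104, limma) and S minus G1 was -0.37 ± 0.17 (adjusted p = 0.191, limma). Without KO_G1 replicate 1 both passed, at 0.47 (adjusted p = 0.0212, limma) and -0.46 (adjusted p = 0.0425, limma). E2f5, the other pocket-bound repressor, ran from 9.07 to 10.06 at ILMN_2953596 over all arrays and was called in no phase comparison, the largest difference being S minus cycling at -0.33 ± 0.19. Its second probe was detected on no array.

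E2f2, another activator, lay near background. Probe ILMN_2673776 was detected on 14 arrays and ILMN_2836137 on 13, and ILMN_1248842 on none. On the slide with the G1 pair numbered 3, ILMN_2673776 read 5.17 in KO and 4.87 in Wt G1 cells, both below the 5.74 to 6.67 of the cycling arrays beside them. Those 2 G1 arrays are the ones on which the probe was not detected, so their readings are at background and no difference within that slide is given. On the other slide the G1 cells read 7.12 and 5.61 in KO and 6.84 and 6.04 in Wt. Its G1 minus cycling difference over all arrays was -0.20 ± 0.35 (adjusted p = 0.74, limma). Probe ILMN_2836137 gave 0.44 ± 0.27 over all arrays, the opposite sign.

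**Figure D2:**
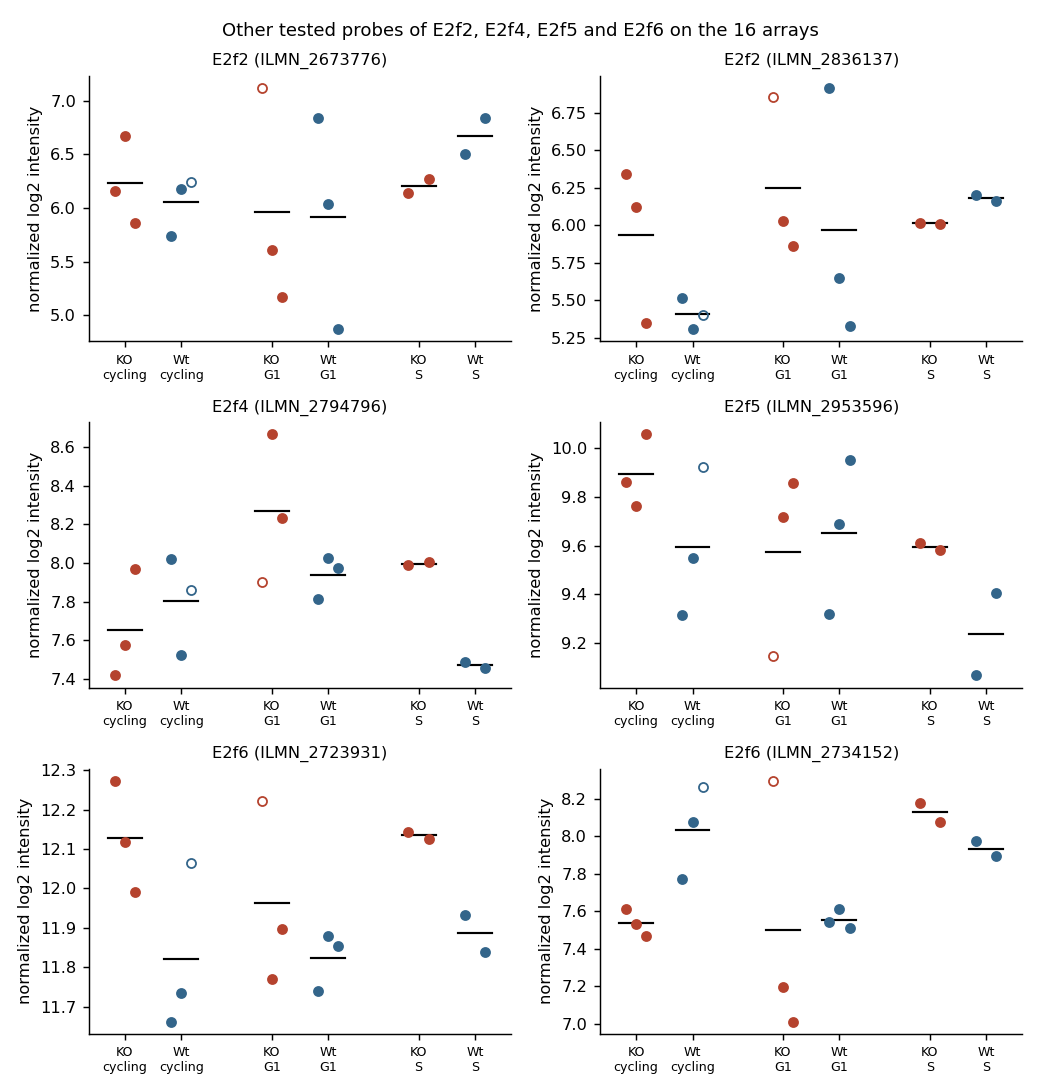
Normalized log2 intensity (y axis) of the other 6 tested probes, of E2f2, E2f4, E2f5 and E2f6, on each of the 16 arrays by group (x axis). Points are arrays, KO red and Wt blue, lines are group means, and open points are KO_G1 replicate 1 and Wt_cycling replicate 3. The phases overlap at each of the 6 probes, and the G1 arrays of E2f2 at ILMN_2673776 spread from 4.87 to 7.12.

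Counted together, 2 of the 7 members were called lower in G1 than in cycling cells (E2f1 and Rbl1) and none higher, where 22.9% of all genes were called, 11.5% lower and 11.4% higher. In S against G1 cells 2 of 7 were called higher (E2f1 and E2f6), where 13.7% of genes were called, 6.89% higher and 6.76% lower. By the brightest probe of each gene, E2f1 was the only one there. In S against cycling cells 1 of 7 was called (E2f3, lower), against 9.66% of genes, 5.46% higher and 4.2% lower. With so few members, these shares cannot be set apart from the background by count. Without KO_G1 replicate 1, 4 members were called in G1 against cycling cells and 5 in S against G1 cells, while the calls over all probes also grew, to 3548 in place of 2394 and to 2830 in place of 1375.

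**Figure D3:**
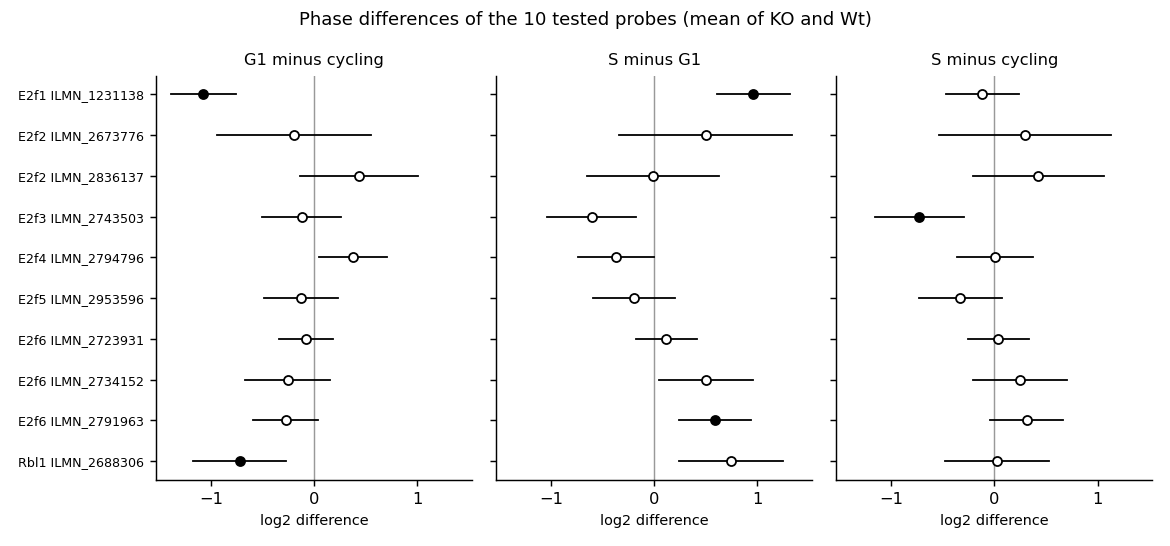
Log2 differences (x axis) of the 10 tested probes (y axis) for G1 minus cycling, S minus G1 and S minus cycling, as means of KO and Wt. Points are limma estimates, bars are 95% intervals, and filled points have an adjusted p under 0.05. E2f1 is -1.08 in G1 minus cycling and 0.96 in S minus G1, with -0.12 in S minus cycling.

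The question of the series was what the loss of Hmgb1 changes, and no member was called between KO and Wt cells. By limma, 0 of 7 members passed as the mean of the 3 phases, against 2.48% of all genes. In single phases 0 of 7 passed each time, against 0.344% in cycling, 0.368% in G1 and 0.237% in S cells. At an unadjusted p under 0.05, 1 of the 10 probes passed in the mean of phases and 0 in each phase, against 12.8%, 10.4%, 9.09% and 5.31% of all probes. A miss does not show that KO and Wt cells had the same levels.

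The 1 probe was E2f6 ILMN_2723931. It ran from 11.77 to 12.27 with a median of 12.12 over the 8 KO arrays, and from 11.66 to 12.07 with a median of 11.85 over the 8 Wt arrays. The genotypes overlapped, and KO was the higher in 6 of 8 pairs. The KO minus Wt difference was 0.23 ± 0.11 (unadjusted p = 0.0489, adjusted p = 0.386, limma), with the other E2f6 probes at 0.08 and -0.12.

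For E2f1 the KO minus Wt difference averaged over phases was 0.00 with a 95% interval of -0.28 to 0.27, and KO was the higher in 4 of 8 pairs. By phase it was 0.28 ± 0.21 in cycling, -0.23 ± 0.21 in G1 and -0.06 ± 0.26 in S cells. The genotype difference in G1 minus that in cycling cells was -0.51 ± 0.29 (adjusted p = 0.527, limma).

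Rbl1 was lower in KO in 7 of 8 pairs, which are not independent, the exception being the G1 pair that holds KO_G1 replicate 1. Its mean difference was -0.21 ± 0.18 (95% interval -0.60 to 0.19, adjusted p = 0.766, limma). In S cells, both KO arrays (6.98 and 6.92) lay below both Wt arrays (7.64 and 7.48), a difference of -0.61 ± 0.36 (unadjusted p = 0.117, limma), not called. With 2 against 2 arrays such a separation is weak. It was seen, in either direction, at every tested member probe but that of E2f1, and 0 passed an unadjusted p under 0.05 (limma). The share of separated probes among all probes was not counted, so the separation is no result about the members. E2f4 was higher in KO in 7 of 8 pairs, with a mean difference of 0.23 ± 0.13 (95% interval -0.05 to 0.52, adjusted p = 0.539, limma) and 0.52 ± 0.27 in S cells. The E2f6 probe ILMN_2734152 had all 3 KO cycling arrays (7.61, 7.53 and 7.47) below all 3 Wt cycling arrays (7.77, 8.07 and 8.26), a difference of -0.50 ± 0.27 (adjusted p = 0.549, limma). The intervals of E2f3 (-0.17 to 0.51) and E2f5 (-0.12 to 0.51) spanned 0, as did those of the E2f2 probes. The tests of whether the genotype difference varied between phases called 0 of 7 members, and 0% of all genes, in both G1 against cycling and S against G1. At an unadjusted p under 0.05 they called 0 of the 10 member probes, against 9.44% and 1.52% of all probes.

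**Figure D4:**
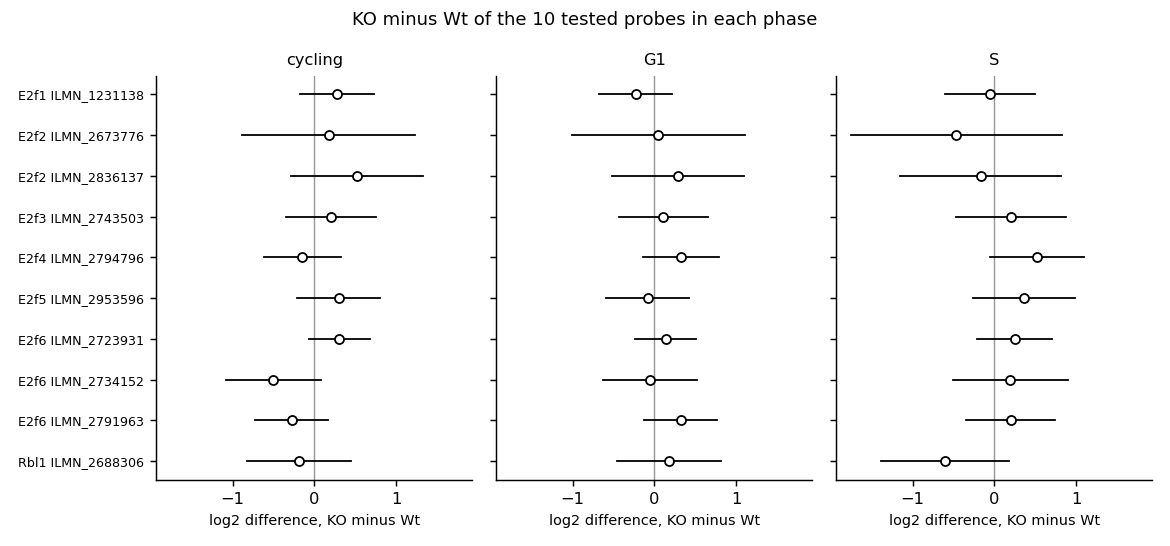
KO minus Wt log2 differences (x axis) of the 10 tested probes (y axis) in cycling, G1 and S cells. Points are limma estimates and bars are 95% intervals, and open points mark an adjusted p of 0.05 or more. Every interval spans 0, including that of Rbl1 in S cells at -0.61 and of E2f4 in S cells at 0.52.

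E2f7, an atypical repressor, and Rbl2, the pocket protein of resting cells, gave no measurable level. The E2f7 probe was detected on 1 of 16 arrays, with values of 4.30 to 5.86. Rbl2 had 2 probes, detected on 0 and 1 arrays, with values of 4.39 to 4.78 and 4.29 to 5.41. On each array the dimmest detected probe read 5.16 to 5.97, so these readings lie around background and no fold is given.

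The genes around the members were read from 4 lists by the brightest tested probe of each gene, where 10.2% of all genes were lower and 10.6% higher in G1 than in cycling cells. In the list of E2F partners and DREAM subunits, called the partners below, 3 of 6 tested genes were lower in G1 and none higher. The median difference was -0.39, against -0.03 over all genes. The lower ones included Mybl2 and Foxm1, which the list took in though they are neither E2F partners nor subunits of DREAM itself. Mybl2, the B-Myb subunit that joins the complex for later cell cycle genes, fell by 1.18 ± 0.29 (adjusted p = 0.011, limma) and the mitotic gene activator Foxm1 by 1.01 ± 0.15 (adjusted p = 0.000429, limma). Rb1 (-0.13) and Lin54 (-0.15) differed least. Without the 2 arrays that stand apart 5 of 6 were lower, and with a slide term 1 of 6.

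Of the cyclins, kinases and inhibitors that act on pocket proteins, 4 of 9 were lower and none higher in G1 (median -0.21). The E-type cyclins, which activate Cdk2, fell by 1.12 ± 0.27 for Ccne1 (adjusted p = 0.0104, limma) and 0.99 ± 0.18 for Ccne2 (adjusted p = 0.00177, limma). The inhibitor Cdkn1a (0.00) and cyclin Ccnd1 (-0.14) differed least. With a slide term 0 of 9 were called.

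E2F targets used at the start of S phase were lower in G1 for 15 of 20 tested genes and higher for none (median -0.94). Tk1, a thymidine kinase, fell by 1.59 ± 0.20 (adjusted p = 0.000145, limma) and Mcm2, a subunit of the replicative helicase, by 1.42 ± 0.15 (adjusted p = 3.89e-05, limma). Cdt1 (0.06) and Cdc25a (0.18) differed least. The count was 16 of 20 without the 2 arrays that stand apart and 11 of 20 with a slide term. Of the DREAM targets at G2/M, 7 of 9 were lower and none higher (median -0.94), led by the mitotic kinase gene Cdk1 at -1.16 and the kinetochore gene Ndc80 at -1.07. Kif11 (-0.42) and Cenpa (-0.81) differed least. A slide term left 2 of 9. Those targets and E2f1 and Rbl1 share the cycling and G1 arrays and are not independent measurements of these cultures.

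In S against G1 cells, 5.98% of all genes were higher and 6.1% lower. By limma the partners had 0 of 6 called in either direction (1 of 6 at an unadjusted p under 0.05, median 0.22), with Mybl2 at 0.95 (adjusted p = 0.074, limma) and Rb1 at 0.32 the largest and Lin54 (0.10) and Tfdp1 (0.17) the smallest. Without the 2 arrays that stand apart 4 of 6 were higher, while the S against G1 calls over all probes grew from 1375 to 4281. Of the cyclins, kinases and inhibitors, 6 of 9 were higher and none lower (median 0.66), with Ccne1 at 1.22 ± 0.30 (adjusted p = 0.0218, limma) and Ccne2 at 1.19 ± 0.20 (adjusted p = 0.00301, limma). The D-type cyclin genes Ccnd1 and Ccnd2 were higher too, at 0.89 and 0.94, and so was the inhibitor gene Cdkn1a at 0.66. Cdkn2c (-0.10) and Cdk6 (-0.11) differed least.

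Of the E2F targets at G1/S, 13 of 20 were higher in S and 2 lower (median 0.74). Tk1 (1.29) and Tyms (1.21), which supply thymidine nucleotides, rose most. The lower ones were Cdt1, a licensing factor, at -0.66 ± 0.18 (adjusted p = 0.0355, limma) and Cdc25a, a phosphatase acting on cyclin-dependent kinases, at -0.46 ± 0.12 (adjusted p = 0.0305, limma). Cdc25a averaged 7.88 in G1 and 7.73 in S cells of KO, against 7.76 and 6.99 in Wt. Ung (-0.08) and Ezh2 (0.13) differed least. With a slide term 12 of these 20 targets were higher and 1 lower. The G2/M list had 1 of 9 higher, Ndc80 at 0.93, and none lower (median 0.41), with Cdk1 at 0.93 (adjusted p = 0.0766, limma), and Cdc20 (-0.04) and Kif11 (0.12) the smallest. Without the 2 arrays that stand apart, that list had 3 higher and 2 lower.

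In S against cycling cells, where 5.02% of all genes were higher and 3.61% lower, the lists gave 0 higher and 1 lower of the partners, 2 and 0 of the cyclins, kinases and inhibitors, 0 and 1 of the G1/S targets and 0 and 2 of the G2/M targets. The lower ones were Foxm1 (-0.78), the Polycomb methyltransferase gene Ezh2 (-0.74), the mitotic kinase gene Plk1 (-1.65) and the centromeric histone gene Cenpa (-0.97), and the higher ones Ccnd1 (0.75) and Cdkn1a (0.66), all named after their values were seen. With a slide term none of these genes was called. Without the 2 arrays that stand apart, 6 of 20 G1/S targets and 4 of 9 G2/M targets were lower, 3 of 9 cyclins, kinases and inhibitors were higher, and 1 of 6 partners was lower. Over all probes the S against cycling calls went from 980 to 3537 without those arrays and to 40 with a slide term.

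Between KO and Wt cells averaged over phases, 1.01% of all genes were higher and 1.33% lower. The G1/S list had 1 of 20 lower in KO, Tk1 at -0.78 ± 0.18 (adjusted p = 0.0388, limma), and the G2/M list 1 of 9, Ndc80 at -0.65 ± 0.15 (adjusted p = 0.0402, limma). The partners and the cyclins, kinases and inhibitors had 0 called of 6 and 0 of 9 by limma, with 1 and 3 at an unadjusted p under 0.05. At that unadjusted threshold the G1/S list had 6 of 20 and the G2/M list 5 of 9, against 12.8% of all probes. List medians were -0.17 for the partners, -0.20 for the cyclins, kinases and inhibitors, -0.27 for the G1/S targets and -0.52 for the G2/M targets, against 0.00 over all genes. Both calls ended with a slide term, and without the 2 arrays that stand apart the G1/S list had 4 lower and 1 higher and the G2/M list 5 lower. Over all probes the calls went from 249 to 180 with a slide term. Without those arrays they rose to 1184, of which 609 were higher and 575 lower.

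**Figure D5:**
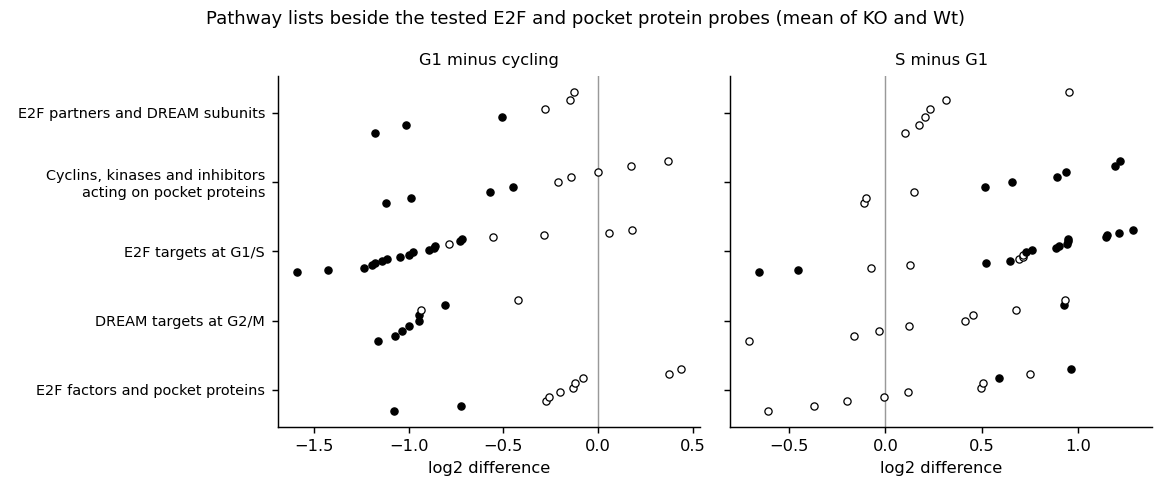
Log2 differences (x axis) of the tested genes of each list, and of the 10 tested E2F and pocket protein probes in the bottom band, for G1 minus cycling and S minus G1 as means of KO and Wt. Each point is 1 gene (1 probe in the bottom band), spread vertically by size within its band, and filled points have an adjusted p under 0.05. The G1/S targets lie mostly below 0 in G1 minus cycling (median -0.94) and mostly above 0 in S minus G1 (median 0.74).

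Fibroblast markers moved between the phases as well. In G1 against cycling cells Pdgfra rose by 2.19 ± 0.36 (adjusted p = 0.00082, limma) and Dcn by 2.10 ± 0.24 (adjusted p = 7.04e-05, limma). Lum at 5.77 and Col3a1 at 0.80 were also called higher. Thy1 was called lower, at -0.62 ± 0.17 (adjusted p = 0.0215, limma). Col1a1 (0.02), Vim (-0.06), Col1a2 (-0.05) and Pdgfrb (-0.40) did not pass. The epithelial markers Krt14 (1.29) and Krt8 (0.66) were called higher, though detected on only 5 and 8 of 16 arrays. Both entered the tests only through a group in which every array detected them, so these calls may reflect that filter. Lum, Pdgfra and Dcn had the largest rises in the sum that follows. The summed log2 level of the 9 fibroblast markers was 106.8 to 114.6 on KO and 107.8 to 115.6 on Wt G1 arrays, against 95.6 to 99.7 on KO and 100.7 to 103.3 on Wt cycling arrays. Of the macrophage markers, Adgre1 was 0.22 and Lyz2 0.30 in G1 minus cycling, 1.84 and 1.38 in S minus G1, and 2.07 (adjusted p = 0.105, limma) and 1.68 (adjusted p = 0.0506, limma) in S minus cycling, none called. Between KO and Wt cells averaged over phases, Pdgfra fell by 1.32 ± 0.31 (adjusted p = 0.0455, limma), as did the epithelial marker Krt14 by 1.01 ± 0.15 (adjusted p = 0.00214, limma) and the endothelial marker Eng by 1.17 ± 0.22 (adjusted p = 0.0111, limma). Krt14 was detected on only 5 of 16 arrays and Eng on 14, so many of the Krt14 readings lie at background. Krt14 was tested only because at least 1 group had it detected on all arrays, so its genotype call may reflect that filter. The other 8 fibroblast markers did not pass there, Lum being nearest (adjusted p = 0.0567, limma) but undetected on 3 of 16 arrays. The part of these markers in the results for E2F members and lists was not tested.

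The profile most like that of E2f1, the member probe with the widest range of group means (1.33), was sought among 11381 probes of other genes over the 16 arrays. Likeness was the root mean square difference between profiles centred on their own means. The 5 nearest genes were Meis2 (0.19), Dyrk1b (0.23), Msrb2 (0.23), Chaf1a (0.24) and Cenpk (0.24), against a median of 0.66 over all candidates. Chaf1a encodes a subunit of the chromatin assembly factor that works at replication forks, Cenpk a centromere protein, Meis2 a homeobox factor, Dyrk1b a protein kinase and Msrb2 a mitochondrial methionine sulfoxide reductase. Meis2 averaged 10.33 in KO and 9.91 in Wt cycling cells, 9.04 and 9.25 in KO and Wt G1 cells, and 10.07 and 10.06 in KO and Wt S cells. Those points share arrays and normalization with E2f1, and likeness is given as a description only.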

How the data were processed

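Total RNA in 16 samples of fibroblasts was labelled as biotinylated cRNA and read on Illumina bead arrays. The deposited file holds the authors' non-normalized average intensity of every probe on every array. Beside it stands, per the file headers, the p-value of detection. Both were made with BeadStudio 3.0 per the submitters' processing notes. The authors' deposited value table, normalized intensities whose method is not given in the sources used here, was an alternative, taken to the log2 scale with a floor of 16. Intensities were corrected with normexp on the detection p-values, given an offset of 16, quantile normalized and set on the log2 scale (neqc, limma 3.58.1, R 4.3.3, statmod 1.5.0). The limma model had 6 group means and two-sided tests with Benjamini-Hochberg adjustment over 12078 probes. The KO against Wt mean over phases had the fibroblast line (genotype and replicate number) as a random block (consensus correlation -0.0106). The labels do not say whether the phases of a line are separate cultures. Symbols came from the platform's probe table (23978 of 25697 probes with 1 symbol, 1719 with none).

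All members were named with each probe. List genes named are the 2 largest and 2 smallest differences per list, and the nearest profiles to the member with the widest range of group means. Ccnd1, Ccnd2, Cdkn1a, Cdt1, Cdc25a, Tk1 and Ndc80, where outside that rule, and the cell type markers given with a difference were added after their values were seen. The members and lists were chosen with earlier results of these data known. KO and Wt arrays of the same number come from embryos of 1 mother per the series description. The correlation of their deviations from group means over the 3 pairs of cycling cells was 0.196, 0.189 and 0.388. Over the 3 G1 pairs it was 0.423, 0.403 and 0.357, and over the S pairs, which are mirror images in groups of 2, 0.0644. KO and Wt arrays of unlike number gave -0.307 to 0.246 in cycling cells and -0.396 to 0.276 in G1 cells. In cycling cells, KO replicate 1 with Wt replicate 2 (0.226) and KO replicate 2 with Wt replicate 1 (0.246) exceeded their same-number values. The fit was tested on simulated data. Alternatives were the normalization, background correction, filter, blocks, single slides and arrays left out.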

Additional observations from a re-analysis of the deposited data

Results flagged for a closer look

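Of 80 readings of the 5 member probes that were not tested, 2 passed the detection threshold of 0.01. The E2f7 probe ILMN_2658795 was detected on KO_cycling replicate 3 at a level of 5.52, with 0.007519 as the detection value that the deposited table gives for that 1 reading, against levels of 4.93 and 4.74 on the other KO cycling arrays. The Rbl2 probe ILMN_3009354 was detected on KO_S replicate 1 at a level of 5.41, with 0.002506 as that value, against 4.35 on the other KO S array. A higher E2f7 reading, 5.86 on KO_G1 replicate 1, did not pass that array's background. Whether these are signal was not tested.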

How the results depend on the processing

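No genotype count changed. Under every alternative run (up to 25 for a comparison, among them the replicate block as a fixed term, the pair within phase as a block, single slides and each array left out), 0 members were called between KO and Wt or in the difference of genotype differences. Of 660 probe values for the genotype, 660 kept their side of the threshold, as did 380 of 380 for the difference of genotype differences and 529 of 580 for the phases, where 33 lost and 18 gained a call and no called value changed sign. Values that were called in neither fit changed sign in 34, 22 and 30 cases and are counted as having kept their side.

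The count of members in G1 against cycling cells, 2, was 1 with the slide as a block, 4 without the 2 arrays that stand apart, and 1 to 4 with single arrays left out. On slide 1 alone it was again 2, but of E2f2 and Rbl1, the E2f2 probe being undetected on both G1 arrays there. In S against G1 cells the count, 2, was 1 with median scaling, 1 with the slide as a block, 1 with the replicate number as a block, 0 on slide 2 alone, 5 without both arrays, and 1 to 5 with single arrays left out. For S against cycling cells the count, 1, was 0 without the filter on dim probes, 0 with the slide block, 0 with the replicate block, 2 without both arrays, and 0 to 1 with single arrays left out. The fixed replicate block ended the E2f6 and E2f3 calls and no other member call. In S against G1 cells and S against cycling cells, leaving out an array of the S groups leaves 1 array there, assumed to vary like the other groups. Over all probes the calls without both arrays were 4183 in G1 against cycling, 4281 in S against G1 and 3537 in S against cycling cells. With the slide block they were 765, 845 and 40, and in the main fit 2394, 1375 and 980. The cause of these changes was not tested.

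E2f1 kept its calls under all alternatives except single slides. Those fits also hold fewer arrays, and why the calls ended there was not tested. Over the alternatives, G1 minus cycling ran from -1.17 to -0.90 and S minus G1 from 0.85 to 1.049. The Rbl1 call in G1 ended in 8 of 21 alternatives (adjusted p up to 0.0666, limma), the E2f6 call in 11 of 19 and the E2f3 call in 12 of 18. Over all probes, median scaling moved the split of calls to 1490 higher and 1022 lower in G1 against cycling cells (1174 and 1220 before), and to 549 higher and 942 lower in S against G1 cells (691 and 684 before). Under median scaling 0 of the list counts of the G1/S targets moved by over 1.5 times in those 2 comparisons, while in G1 against cycling cells 2 cyclins, kinases and inhibitors and 4 G2/M targets were called. The list settings were chosen after seeing the data. S and cycling cells shared no slide, so their comparison with the slide as a block rests on the G1 arrays. E2f2, E2f7 and Rbl2 lie near background, which limits what their probes can show, and with 2 arrays per genotype in S only large differences could pass.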
